A study of Mus musculus with 12 samples.

Results

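The expression of 750 immune and cancer genes was compared between 6 mouse mammary tumors exposed to a PARP inhibitor and 6 tumors that were not, out of 12 tumors in all. The 6 exposed tumors were the 3 labelled Olaparib and the 3 labelled Olaparib+ADUS100, and the 6 others were the 3 labelled Vehicle and the 3 labelled ADUS100. Membership followed from the treatment in each tumor's label, with no measured value used. The question was which genes differed with olaparib in the same direction whether or not the STING agonist ADU-S100 had also been given.

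All 12 tumors came from a mouse model of triple-negative breast cancer, K14-Cre-Brca1f/f;Trp53f/f, written K14-Cre;Brcaf/fTrp53f/f in the labels, in which Cre under the keratin 14 promoter deletes both floxed genes in epithelium. The tumors were grown in mammary fat pads of females of the syngeneic FVB/129P2 background, so the leukocytes, vessels and fibroblasts of the host did not carry the tumor's deletions. Treatment began at 150 to 300 mm3. The age of the mice and whether the grafts came from 1 donor tumor were not given in the sources used here. Vehicle tumors had DMSO in saline intraperitoneally and a saline injection into the tumor. Olaparib tumors had 50 mg/kg of olaparib each day over 3 days with intratumoral saline. ADU-S100 tumors had intraperitoneal DMSO and, on the first day, 50 μg of ADU-S100 injected once into the tumor in a volume of 40 μl. Combination tumors had both drugs. Every tumor was harvested at 3 days, and 100 ng of RNA from a frozen chunk was hybridized to nCounter probes.

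PARP enzymes bind broken DNA and help to repair single-strand breaks. Inhibitors such as olaparib trap them there, and cells without BRCA1 cannot mend the resulting damage by homologous recombination. DNA that reaches the cytosol is sensed by cGAS, which makes the cyclic dinucleotide that activates STING. STING signals through TBK1 and IRF3 to type I interferon, and interferon receptors switch on a large set of interferon-stimulated genes. ADU-S100 is a synthetic dinucleotide that binds STING directly.

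The values are normalized mRNA counts, and a difference is the mean of log2(normalized count + 1) in tumors given olaparib minus that in tumors without it, with ADU-S100 as a covariate. Of the 750 genes, 689 reached 20 in at least 3 tumors and were tested with limma. No gene passed an adjusted p of 0.05 (0% of those tested; the smallest was 0.511). At an unadjusted p below 0.05, 43 genes were higher with olaparib (6.24% of those tested) and 11 were lower (1.6%). With each tumor scaled to the same median these counts were 46 and 17. With 1 tumor left out the lower count was 49 (without Olaparib tumor 1517), 26 (without vehicle tumor 1269), 7 (without vehicle tumor 1529) or 5 (without vehicle tumor 1536 or combination tumor 1270). The higher count was 69 (without ADU-S100 tumor 1506), 26 (1512), 23 (vehicle 1536) or 19 (ADU-S100 1513). Such genes are ranked by this measure and are not called as changed. The exact permutation of olaparib labels within each ADU-S100 background gave p of at most 0.05 for 43 of the 54, with 0.005 the smallest value that its 400 relabelings can give.

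Tumors differed in how precisely they were measured. Probe counts were inferred from the step of which each tumor's values are whole multiples. A count was worth 0.589 to 10.5 normalized counts in tumors given olaparib and 0.682 to 2.85 in those without. Olaparib tumor 1517 had the highest value and a total of 106206 probe counts, and Olaparib tumor 1521 the lowest value. The totals of the other tumors ran from 372390 to 1519471. Tumor 1517 also stood apart in Pecam1, an endothelial adhesion molecule, at 8625 against 105.2 to 2359 in the other 11. Refits without single tumors covered the 25 genes chosen for the smallest p. They also covered the lists of interferon-stimulated genes, nucleic acid sensors, MHC class II, T cells, stroma and endothelium. Where any of these moved by over 1.5 times without tumor 1517 or 1521, that value is given. For the other genes and lists named below, such values were not examined. The tumor numbers began with 12 in 3 tumors (1 vehicle, 2 combination) and with 15 in 9, a difference the labels leave unexplained. The epithelial markers Epcam (4580 to 15840) and Cdh1 (3997 to 7677) were well represented in every tumor. All other defining markers of leukocytes, fibroblasts and endothelium were above 0 as well, so the chunks held mixed tissue. Trp53 read 288.7 to 3930, and whether its probe lies in the deleted part was not given in the sources used here. Brca1, Parp1 and Parp2 were not among the genes measured. In such bulk RNA, fewer cells of a type and less RNA per cell cannot be told apart.

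The effects of olaparib with and without ADU-S100 were computed from separate tumors. Over the 689 genes, 279 had the same sign on both backgrounds (40.5%), of which 191 were higher and 88 lower. The median difference was 0.45 without ADU-S100 and -0.22 with it, and across genes, which are not independent replicates, Pearson's r between both differences was -0.18. Scaling each tumor to the same median brought these medians to 0.10 and -0.02 and left 40.9% of genes with the same sign. Of the 54 genes at an unadjusted p below 0.05, 53 had the same sign on both backgrounds, 42 higher and 11 lower, and the exception was H2-Aa. A gene whose average difference is large is likely to have the same sign on both sides, so this count follows in part from the selection. With each background tested alone, 40 genes were higher and 10 lower at this level without ADU-S100, and 31 higher and 32 lower with it. Only 3 genes were among these on both sides in the same direction.

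**Figure D1:**
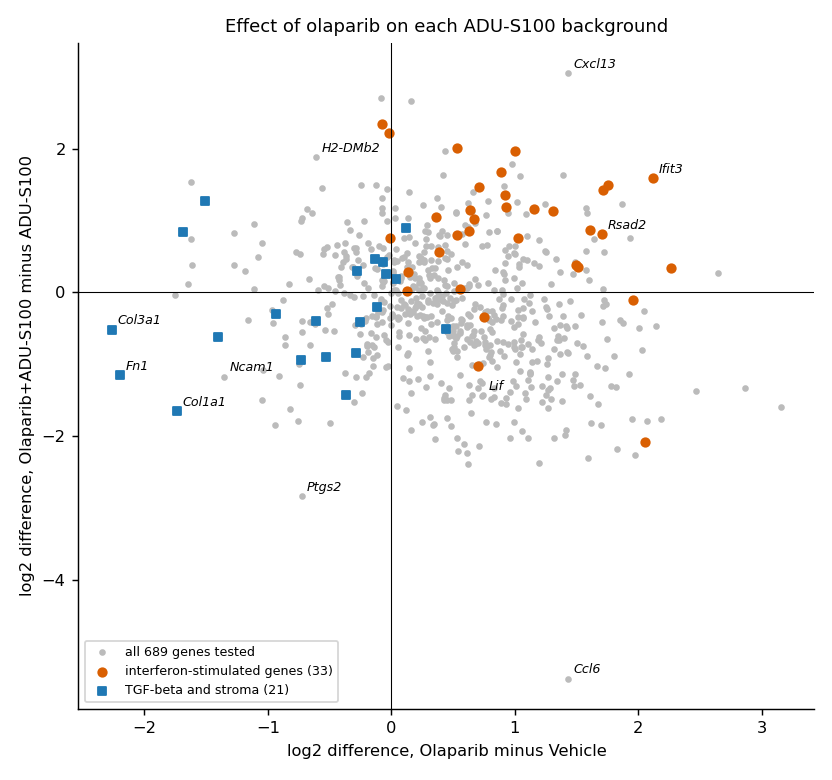
Log2 difference made by olaparib without ADU-S100 (x axis, Olaparib minus Vehicle) and with it (y axis, Olaparib+ADU-S100 minus ADU-S100) for the 689 genes tested, each from 3 tumors against 3. The cloud leans to the lower right (medians 0.45 and -0.22), while 26 of 33 interferon-stimulated genes (orange) lie in the upper right quadrant and 12 of 21 stromal genes (blue squares) in the lower left. Of all 689 genes, 191 lie in the upper right and 88 in the lower left.

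Complete separation was rarer. In 2 genes (0.29% of those tested) all 3 tumors given olaparib lay on the same side of all 3 without it on both backgrounds. Itgax, which encodes the integrin CD11c of dendritic cells and some macrophages, was the higher of them. It read 83.9, 95.2 and 63.0 in vehicle tumors and 160, 105 and 106 in Olaparib tumors. With ADU-S100 it read 105, 104 and 72.8 alone and 222, 145 and 180 in the combination. The difference was 0.77 ± 0.26 (SE; 1.71-fold; unadjusted p = 0.0107, limma). With each tumor scaled to the same median it was 0.70 (unadjusted p = 0.0815, limma), with quantile normalization 0.61 (unadjusted p = 0.146, limma) and in tumors numbered from 15 alone 0.75 (unadjusted p = 0.0704, limma). Without ADU-S100 the Itgax difference was 0.60, but 0.25 after scaling to the same median and 0.05 after quantile normalization. With ADU-S100 it was 0.945, 1.15 and 1.17 in the same order. Ncam1, the neural cell adhesion molecule CD56, was the lower. It read 382, 905 and 901 in vehicle tumors against 244, 377 and 202 in Olaparib tumors, and 587, 574 and 1163 with ADU-S100 alone against 376, 164 and 551 in the combination. Its difference was -1.26 ± 0.38 (unadjusted p = 0.00587, limma). Complete separation on both backgrounds by itself fixes the permutation p at its minimum, so it is not given for these genes. In both genes the groups overlapped once the backgrounds were pooled, and no gene kept all 6 olaparib tumors apart from all 6 others.

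Genes of the interferon response had the highest median of the 24 gene lists described. Of 33 interferon-stimulated genes tested, 31 had a higher mean with olaparib, 13 were higher at an unadjusted p below 0.05 (39.4%, against 6.24% of all genes tested) and none was lower at that level. The sign was positive on both backgrounds for 26 (78.8%), against 191 of all 689 genes (40.5% of all genes had the same sign in either direction). Their median difference was 0.94, against 0.10 over all genes, and it was 0.89 without ADU-S100 and 0.86 with it. After scaling to the same median it was 0.87 against 0.03, at 0.54 without ADU-S100 and 1.07 with it. Then 25 members were positive on both backgrounds, against 157 of all 689 genes. The number at an unadjusted p below 0.05 depended on single tumors. It was 7 without vehicle tumor 1536, ADU-S100 tumor 1512 or ADU-S100 tumor 1513 (3.34%, 3.77% and 2.76% of all genes in those settings), 8 without Olaparib tumor 1510 (5.52%), and 21 without vehicle tumor 1269 (9.14%). The list median stayed between 0.71 and 1.30 over every setting tried.

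Gbp5, a guanylate-binding protein that assembles on intracellular pathogens, had the smallest p of the list. It read 95.5, 96.6 and 82.4 in vehicle tumors and 436, 409 and 153 in Olaparib tumors. It read 601, 100.2 and 62.8 with ADU-S100 alone and 463, 429 and 371 in the combination. All 3 Olaparib tumors were above all vehicle tumors, whereas ADU-S100 tumor 1506 was above every combination tumor. The difference was 1.57 ± 0.49 (SE; 2.96-fold, 95% interval 0.49 to 2.64 on the log2 scale) with an unadjusted p of 0.00803 and an adjusted p of 0.511 in limma. Rsad2, or viperin, an antiviral radical-SAM enzyme, read 202, 75.8 and 81.0 in vehicle tumors and 834, 262 and 201 in Olaparib tumors. With ADU-S100 it read 191, 157 and 116 alone and 331, 184 and 308 in the combination. Here 4 of 6 tumors given olaparib exceeded every tumor without it, and the difference was 1.26 ± 0.42.

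Cmpk2, a mitochondrial nucleotide kinase next to Rsad2 in the genome, read 587 to 764 in all 6 tumors given olaparib against 113 to 687 in the others (difference 1.22 ± 0.43). Irgm2 and Gbp2b, GTPases induced by interferon gamma, differed by 1.28 ± 0.45 and 1.27 ± 0.46. Both had a larger value with ADU-S100 (1.67 and 2.01) than without (0.89 and 0.53), a gap that did not pass the interaction test (unadjusted p = 0.405 and 0.106, limma).

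The antiviral effectors Ifit3, Ifi44l, Ifi44 and Ifit2 differed by 1.86 ± 0.75, 1.63 ± 0.63, 1.48 ± 0.55 and 0.85 ± 0.35, all with unadjusted p between 0.0191 and 0.0311. Ifit3 had the largest difference of the list and the widest spread, from 622 to 11160 without olaparib and from 3481 to 28770 with it. Its exact permutation p was 0.07. Isg15, a ubiquitin-like modifier, differed by 1.16 ± 0.52, nearly the same with ADU-S100 (1.16) as without (1.15) in the deposited values. Scaling to the same median lowers every difference without ADU-S100 and raises every one with it, so this likeness depends on the scaling. Mx2 and Irf7 had differences of 1.30 and 1.09 but wide errors (± 0.63 and ± 0.62), and Ido1, which degrades tryptophan, stood at -0.01. In ADU-S100 tumor 1506, Gbp5, Ifit3 and Ifi44l were above every combination tumor. Without that tumor the list median was 1.30.

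**Figure D2:**
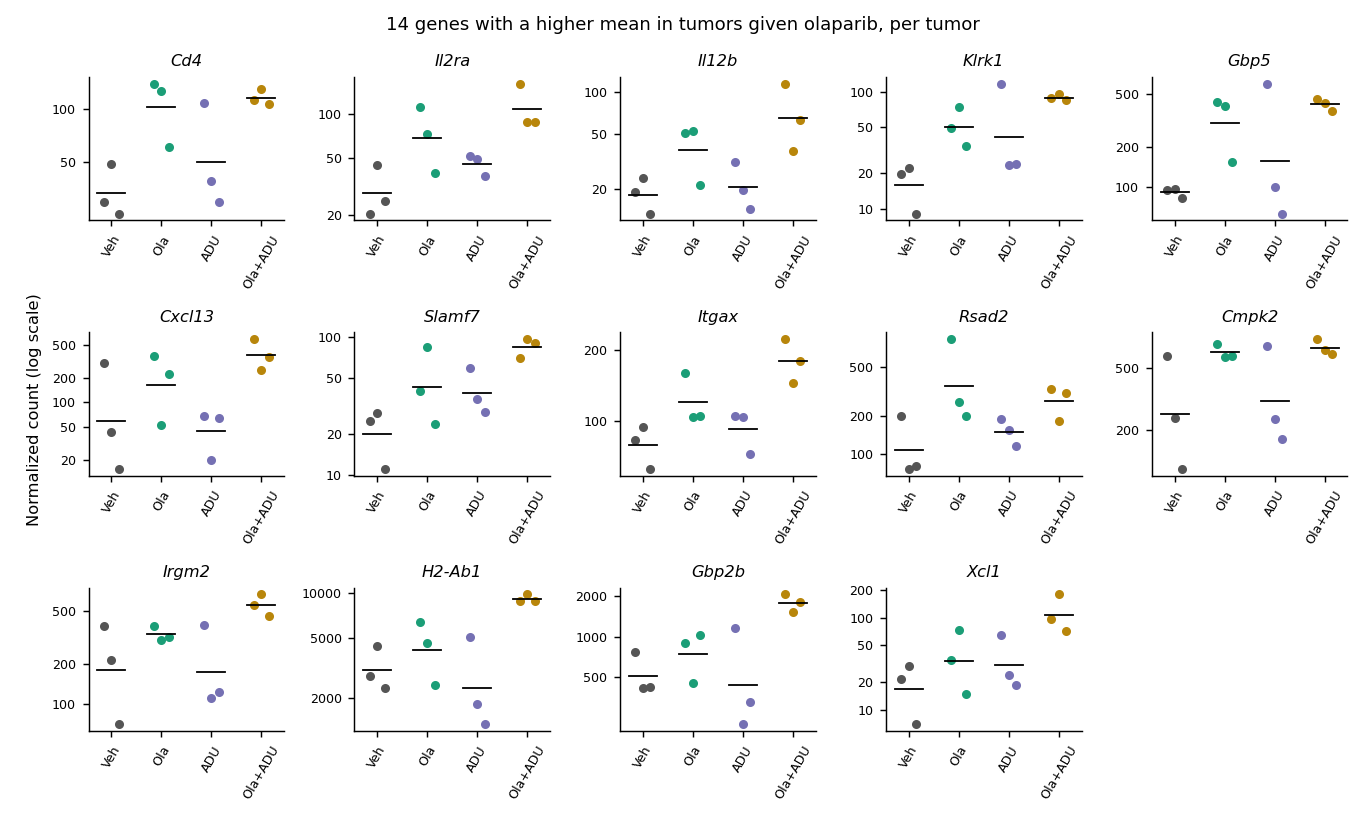
Normalized counts (log axis) of 14 of the 15 genes with the smallest p among those higher on both backgrounds, 1 point per tumor and 3 tumors per group, with a bar at the mean of log2(normalized count + 1). In Gbp5, Klrk1 and Cd4 a single ADU-S100 tumor (1506) lies well above the other tumors of its group and within or above the combination.

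Of the higher genes, Gbp5, Rsad2, Irgm2 and Gbp2b hold an interferon-stimulated response element in the 250 bases upstream of their start (RefSeq, GRCm38.p6), taken as GAAA, any 2 bases and GAAA on either strand. Their sequences are shown because these 4 hold it among the 15 higher genes with the smallest p. Ifit3 and Isg15, outside those 15, hold it too and are not shown. Each is 60 bases, 5′ to 3′ on the strand of the gene, with the match in capitals (a match on the opposite strand reads TTTC, 2 bases, TTTC). They lie at chr3:142496744-142496803 (Gbp5, plus strand), chr12:26456538-26456597 (Rsad2, minus strand), chr11:58214888-58214947 (Irgm2, plus strand) and chr3:142594685-142594744 (Gbp2b, plus strand).
Gbp5: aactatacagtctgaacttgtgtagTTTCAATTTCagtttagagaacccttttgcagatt
Rsad2: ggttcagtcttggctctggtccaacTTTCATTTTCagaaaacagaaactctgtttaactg
Irgm2: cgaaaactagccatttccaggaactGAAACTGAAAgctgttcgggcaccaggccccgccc
Gbp2b: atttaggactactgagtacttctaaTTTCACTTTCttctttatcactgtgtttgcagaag

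The match begins 165 bases before the start in Gbp5, 120 in Rsad2, 64 in Irgm2 and 137 in Gbp2b. The same letters stood in 936 of 27025 mouse promoters of this length (3.46%) and in 44 of the 508 tested genes with a promoter in the table (8.66%). Among interferon-stimulated genes 11 of 27 held them (40.7%), and among the 15 higher genes with the smallest p, 4 of the 12 with a promoter in the table (33.3%). A match describes letters in a window and is not a measured binding site.

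Of 15 nucleic acid sensors and adaptors, 13 had a higher mean and 1 was higher at an unadjusted p below 0.05 (6.67%, against 6.24% of all genes tested), with a median of 0.43. The count was 5 without vehicle tumor 1269 or ADU-S100 tumor 1506 (9.14% and 10% of all genes in those settings), 3 without Olaparib tumor 1510 (5.52%), 7 with tumor weights (14.5%) and 0 without vehicle tumor 1536, ADU-S100 tumor 1512 or 1513, or any 1 of the 3 combination tumors, where between 2.76% and 5.37% of all genes were higher. The 1 gene past that level with all tumors was Ddx58, which encodes the RNA sensor RIG-I (0.85 ± 0.38). Tmem173, the gene of STING, read 437 to 667 without olaparib and 496 to 916 with it, a difference of 0.39 ± 0.25 (unadjusted p = 0.147, limma). Ifnb1, the type I interferon made downstream of STING, differed by 1.42 without ADU-S100 and by -0.83 with it. It was low in tumors given olaparib (9.07 to 52.4). In Olaparib tumor 1517, where 1 probe count was worth 10.5, values of this size rest on few counts.

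Cxcl9 and Cxcl11, ligands of CXCR3 on activated T cells, differed by 1.51 ± 0.57 and 1.35 ± 0.52, and their relative Cxcl10 by 1.14 ± 0.53 (unadjusted p = 0.0524, limma). Ccl5, which also draws T cells, differed by 1.03 ± 0.48. Over all 49 chemokines and receptors, 6 were higher (12.2%, against 6.24% of all genes tested) and 2 lower (4.08%, against 1.6%) at an unadjusted p below 0.05 and the median was 0.09, close to that of all genes.

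Cxcl13, the B cell chemoattractant that binds CXCR5, had the largest difference of the higher genes named. It read 302, 43.1 and 15.2 in vehicle tumors and 364, 52.4 and 219 in Olaparib tumors. It read 68.4, 19.6 and 64.2 with ADU-S100 alone and 593, 249 and 358 in the combination. The groups overlapped without ADU-S100 and did not with it, and the difference was 2.24 ± 0.73 (4.73-fold). Its value of 52.4 in tumor 1517 rested on 5 probe counts. Xcl1, made by activated T and NK cells to attract cross-presenting dendritic cells, differed by 1.38 ± 0.50, and Ccl22, made by dendritic cells, by 0.89 ± 0.34.

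The monocyte chemoattractants Ccl2 and Ccl7 lay on the other side. Ccl2 read 379 to 1982 without olaparib and 136 to 966 with it, and differed by -1.06 ± 0.42, alike without ADU-S100 (-1.04) and with it (-1.08). After scaling to the same median the Ccl2 differences were -1.39 without and -0.88 with ADU-S100, and after quantile normalization -1.48 and -1.12. Ccl7 differed by -1.16 ± 0.49, with an exact permutation p of 0.055. Both were sensitive to single tumors, since Ccl2 kept an unadjusted p below 0.05 in 6 of the 12 settings that left out a tumor and Ccl7 in 4 of 12.

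Among T cell genes, 3 of 13 were higher at an unadjusted p below 0.05 (23.1%, against 6.24% of all genes tested), none was lower, and the median was 0.59 (0.10 over all genes). Without Olaparib tumor 1517 that median was 0.15, without ADU-S100 tumor 1513 it was 0.36, and without vehicle tumor 1536 it was 0.39. Cd4, the coreceptor of helper T cells that some myeloid cells also carry, had the smallest p of all genes. It read 30.0, 49.1 and 25.6 in vehicle tumors and 138, 126 and 60.7 in Olaparib tumors. It read 108, 39.3 and 30.0 with ADU-S100 alone and 112, 129 and 107 in the combination. All Olaparib tumors exceeded all vehicle tumors, and ADU-S100 tumor 1506 overlapped the combination. The difference was 1.38 ± 0.36 (2.60-fold, 95% interval 0.59 to 2.17 on the log2 scale; unadjusted p = 0.00248, adjusted p = 0.511, limma), at 1.57 without ADU-S100 and 1.18 with it. The T cell receptor chains Cd3e and Cd3g were higher by 1.14 ± 0.44 and 0.82 ± 0.34 at low levels, at most 28.5 and 65.5 without olaparib and 70.1 and 108.8 with it.

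Over the whole list, 10 of 13 T cell genes had a higher mean. Cd8a differed by 0.66 ± 0.40, Lck, the kinase that starts T cell receptor signaling, by -0.28, and Tcf7, a factor of naive and memory T cells, by -0.44. The general leukocyte marker Ptprc, which encodes CD45, differed by -0.06, and 1 of 5 general leukocyte genes had a higher mean. Summed over the 15 T cell genes on the panel, the level was 493 to 824 in vehicle, 559 to 1237 in Olaparib, 558 to 1185 in ADU-S100 and 906 to 1200 in combination tumors. The number of T cell genes at an unadjusted p below 0.05 was 1 without vehicle tumor 1536, ADU-S100 tumor 1512 or combination tumor 1270, and 5 without Olaparib tumor 1521 (3.34%, 3.77%, 5.37% and 8.42% of all genes in those settings). When only genes reaching 100 were tested, the median of the few members left was -0.28.

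Il2ra, the high-affinity IL-2 receptor chain of activated and regulatory T cells, ranked next to Cd4. It read 20.5, 44.6 and 24.9 in vehicle tumors and 111, 73.4 and 39.5 in Olaparib tumors, and 51.3, 49.1 and 37.1 with ADU-S100 alone and 162, 88.2 and 87.7 in the combination. In 5 of 6 tumors it exceeded every tumor without olaparib, and the difference was 1.24 ± 0.33 on average, 1.24 without ADU-S100 and 1.23 with it. After scaling to the same median the Il2ra differences were 0.90 without and 1.44 with ADU-S100, and after quantile normalization 0.455 and 1.44. Foxp3, the factor that defines regulatory T cells, differed by 0.15 ± 0.57. Klrk1, the activating receptor NKG2D of NK and CD8 T cells, differed by 1.34 ± 0.42, and Slamf7, an activating receptor of NK and plasma cells, by 1.09 ± 0.36. Of 20 genes of cytotoxic and NK cells, 2 were higher at an unadjusted p below 0.05 (10%, against 6.24% of all genes tested), and the effector genes Gzmb (0.65 ± 0.64) and Prf1 (0.40 ± 0.75) had errors as large as their differences or larger.

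Il12b, the shared subunit of IL-12 and IL-23 that myeloid cells secrete to T cells, read 19.1, 23.8 and 13.2 in vehicle tumors against 50.7, 52.4 and 21.2 in Olaparib tumors. With ADU-S100 it read 31.3, 19.6 and 14.3 alone and 116, 37.9 and 63.1 in the combination. Again 5 of 6 tumors lay above every tumor without olaparib, and the difference was 1.33 ± 0.37. Il12b values were low, and the one of tumor 1517 rested on 5 probe counts. Of 26 NF-kB and inflammatory cytokine genes, 4 were higher (15.4%, against 6.24% of all genes tested) and 1 lower (3.85%, against 1.6%) at an unadjusted p below 0.05, among them the NF-kB subunit Relb (0.69 ± 0.27), the NF-kB inhibitor Nfkbia (0.89 ± 0.39) and Tnf (0.78 ± 0.35). The lower one was Ptgs2, or cyclooxygenase-2, which starts prostaglandin synthesis. Ptgs2 read 30.7, 222 and 303 in vehicle tumors and 113, 115 and 34.8 in Olaparib tumors. It read 424, 493 and 238 with ADU-S100 alone and 85.1, 16.5 and 91.0 in the combination. The groups overlapped without ADU-S100 and were far apart with it, at differences of -0.73 and -2.83. The gap had an interaction p of 0.128 (unadjusted) and an adjusted p of 0.451 in limma.

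Of 11 MHC class II genes, 4 were higher at an unadjusted p below 0.05 (36.4%, against 6.24% of all genes tested) and none lower (1.6% of all genes), with a median of 0.62 that split into 0.16 without ADU-S100 and 1.48 with it. With each tumor scaled to the same median these were -0.19 and 1.69, so that the direction without ADU-S100 turned. The overall median was 0.96 without tumors 1517 and 1521 together, 0.41 without ADU-S100 tumor 1512 and 0.30 in tumors numbered from 15 alone. H2-Ab1, the beta chain of the I-A molecule, read 2830, 4447 and 2346 in vehicle tumors and 6355, 4642 and 2451 in Olaparib tumors. It read 5096, 1837 and 1347 with ADU-S100 alone and 8758, 9775 and 8812 in the combination. The difference was 1.20 ± 0.43, at 0.43 without ADU-S100 and 1.97 with it. Cd74, the invariant chain that escorts class II molecules, differed by 0.16 and 2.67, and H2-Aa, the alpha chain of I-A, by -0.08 and 2.70. The gaps had unadjusted interaction p of 0.00909 and 0.00116 in limma and the same adjusted p of 0.346. The number of class II genes at an unadjusted p below 0.05 was 1 without ADU-S100 tumor 1513, 2 without ADU-S100 tumor 1512 or without either of combination tumors 1270 and 1539, and 0 when only tumors numbered from 15 were used. Of all genes, 2.76%, 3.77%, 5.37%, 4.21% and 3.77% were higher in those settings. Of 17 MHC class I genes, 13 had a higher mean, none was past that level in either direction, and the median was 0.51 (0.45 without ADU-S100 and 0.53 with it, or 0.10 and 0.74 after scaling to the same median).

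**Figure D3:**
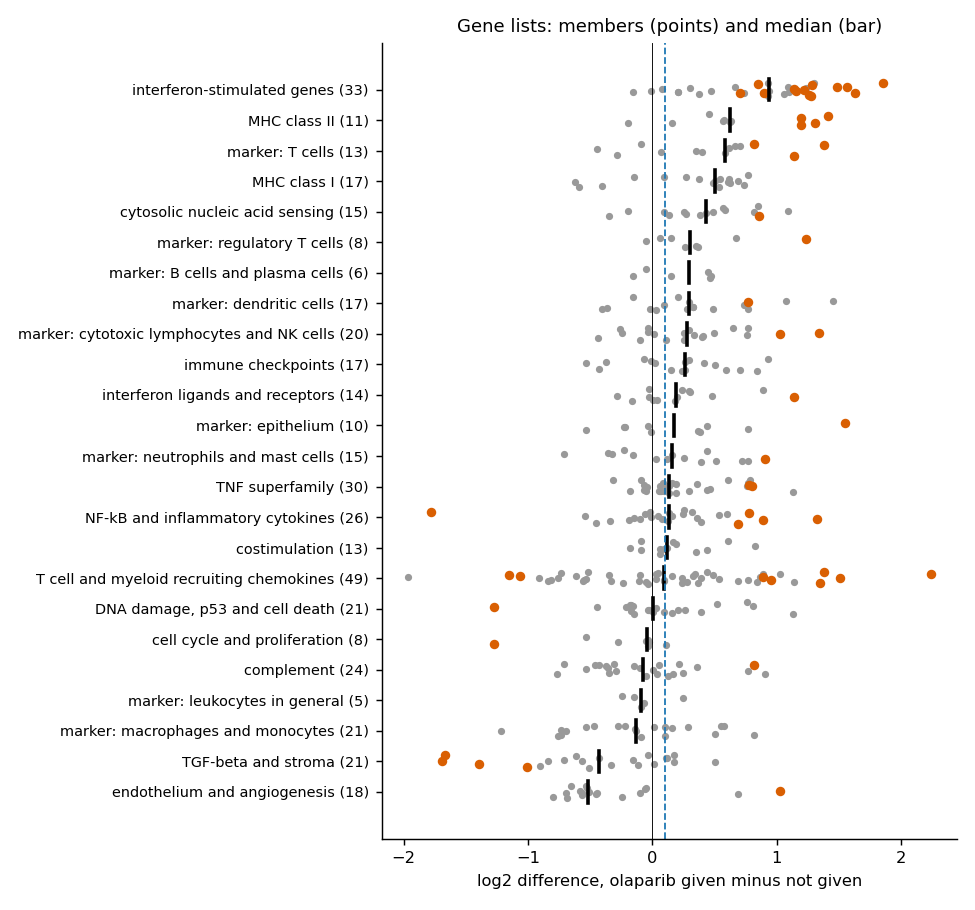
Log2 difference of every tested member of 24 gene lists (points; orange for an unadjusted p below 0.05), with the list median as a black bar, the number of members in brackets, and the median of all genes tested (0.10) as a dashed line. Interferon-stimulated genes lie highest (median 0.94), and the TGF-beta and stroma list (-0.43) and the endothelium list (-0.52; -1.11 to -0.16 when 1 tumor was left out) lowest.

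Of the 11 genes that were lower at an unadjusted p below 0.05, 4 belonged to the list of TGF-beta signaling and stroma. Of 21 genes of TGF-beta signaling and stroma, 15 had a lower mean, 4 were lower at an unadjusted p below 0.05 (19.0%, against 1.6% of all genes tested) and none was higher. The sign was negative on both backgrounds for 12 (against 88 of all 689 genes) and the median was -0.43. Without tumor 1517, 8 members were past that level, with 49 of all 689 genes (7.11%), and without Olaparib tumor 1510 the median was -0.28. Scaling each tumor to the same median gave 6, with 17 of all 689 genes lower (2.47%) and a list median of -0.50.

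Col1a1, a chain of type I collagen, had the smallest p of the lower genes. It read 7802, 44390 and 30530 in vehicle tumors and 2498, 13390 and 8575 in Olaparib tumors, and 33140, 29770 and 19000 with ADU-S100 alone against 7011, 6242 and 13800 in the combination. The groups overlapped through vehicle tumor 1269 and were apart with ADU-S100. The difference was -1.69 ± 0.50 (0.31-fold, 95% interval -2.79 to -0.60; unadjusted p = 0.00558, adjusted p = 0.511, limma), close to equal without ADU-S100 (-1.73) and with it (-1.65). After scaling to the same median the Col1a1 differences were -2.08 without and -1.45 with ADU-S100, and after quantile normalization -1.87 and -1.87. Fn1, or fibronectin, read 2658, 18640 and 10600 in vehicle tumors and 809, 2547 and 2661 in Olaparib tumors. With ADU-S100 it read 8064, 4835 and 5403 alone and 2130, 1857 and 4882 in the combination, a difference of -1.67 ± 0.52 over both backgrounds. Col3a1, a collagen that forms fibrils with type I, differed by -1.39 ± 0.56, with -2.26 without ADU-S100 and -0.52 with it. It was -0.88 without Olaparib tumor 1510 and -0.73 with tumor weights. Thy1, a surface protein of fibroblasts and of T cells, differed by -1.01 ± 0.36.

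Other stromal genes were lower without passing that level, among them Pdgfrb, the receptor of pericytes and fibroblasts (-0.84; unadjusted p = 0.083), and Fap, the protease of activated fibroblasts (-0.62), both by limma. The sum of the 21 genes was 113700 to 160400 in vehicle, 43900 to 88960 in Olaparib, 105300 to 117900 in ADU-S100 and 93130 to 119800 in combination tumors. The sums were thus apart without ADU-S100 and overlapped with it. The summed epithelial markers were 250500 to 345200 in the combination and 142600 to 260000 with ADU-S100 alone, but 40500 to 200000 in Olaparib and 147100 to 260200 in vehicle tumors, and their part in these results was not tested.

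Of 18 endothelial genes, 16 had a lower mean, with a median of -0.52. None was lower at an unadjusted p below 0.05, and 1 was higher (5.56%, against 6.24% of all genes tested), the adhesion molecule Vcam1 (1.03 ± 0.41), which inflamed vessels display to leukocytes. The median depended on single tumors. It was -1.11 without Olaparib tumor 1517, -1.13 without tumors 1517 and 1521 together, -0.16 without Olaparib tumor 1510, -0.18 without ADU-S100 tumor 1506, -0.22 without vehicle tumor 1529 and -0.32 without Olaparib tumor 1521. Without tumor 1517, in which Pecam1 stood apart, 8 endothelial genes were lower at that level (with 49 of all 689 genes, 7.11%) and Vcam1 no longer counted as higher. Of 21 macrophage and monocyte genes none was past that level and the median was -0.13, with Mrc1, a mannose receptor of macrophages, at -1.22 ± 0.80.

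Genes outside the matrix were lower too. Raet1, a ligand of the receptor encoded by Klrk1, read 13.6 to 148.1 without olaparib and 16.5 to 42.6 with it (difference -1.39 ± 0.53). Birc5, or survivin, an inhibitor of apoptosis expressed in dividing cells, differed by -1.27 ± 0.51 (-0.85 without Olaparib tumor 1517), and its value in tumor 1517 (199, from 19 probe counts) was the lowest of the 12. It kept an unadjusted p below 0.05 in 8 of 12 settings without a tumor. Cdk1, the kinase that drives mitosis, differed by -0.53 ± 0.27. Of 21 genes of DNA damage, p53 and cell death, Birc5 alone passed that level (4.76% lower, against 1.6% of all genes tested), and the p53 target Cdkn1a differed by -0.04.

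**Figure D4:**
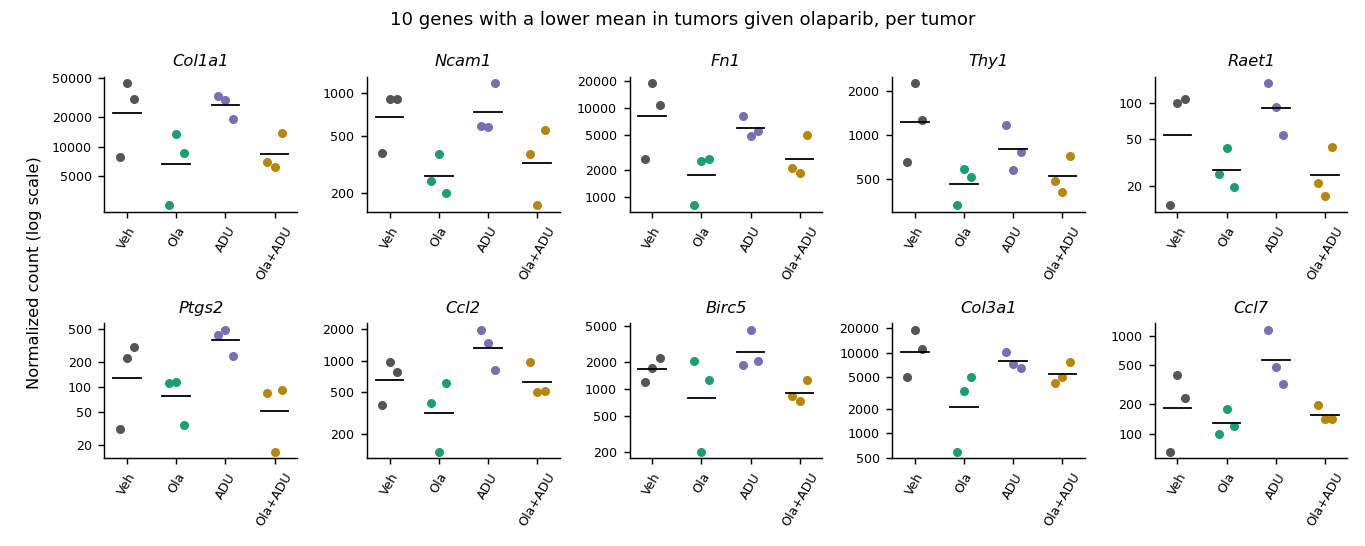
Normalized counts (log axis) of the 10 genes with the smallest p among those lower on both backgrounds, 1 point per tumor and 3 per group, with a bar at the mean of log2(normalized count + 1). Vehicle tumor 1269 is the lowest of its group in all 10 panels, and its values overlap those of the Olaparib tumors in most of them.

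All 25 genes chosen for the smallest p kept their direction in each of the other settings that tested them, which numbered 27 for 20 genes and 26 for 5 that a filter at 100 removed, and 43 of the 670 combinations of gene and setting no longer had an unadjusted p below 0.05. All 25 had been chosen for the same sign on both backgrounds, and they kept it after same-median scaling and after quantile normalization. Some differences without ADU-S100 were then small, such as Itgax (0.05) and Gbp2b (0.16) with quantile normalization. H2-Ab1 stood at 0.08 without ADU-S100 after same-median scaling. With each tumor left out in turn, 19 of the 25 stayed below 0.05 every time. The exceptions were Birc5, Ccl2, Ccl7, Col3a1, Ptgs2 and Raet1, all of them lower genes. One setting gave calls after adjustment. When limma weighted each tumor by how well it followed the model, 57 of all 689 genes passed an adjusted p of 0.05, 40 higher and 17 lower. Among them were 16 of the 33 interferon-stimulated genes tested and 18 of the 25. These 25 were chosen for the smallest p in the same data, so their presence follows in part from the selection. Combination tumors 1539 and 1251 then had weights of 5.33 and 3.90 and counted most. Olaparib tumor 1521 had a weight of 2.4, combination tumor 1270 one of 1.67 and Olaparib tumor 1517 one of 0.0975. Of the 57 genes, 42 had the same sign on both backgrounds.

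**Figure D5:**
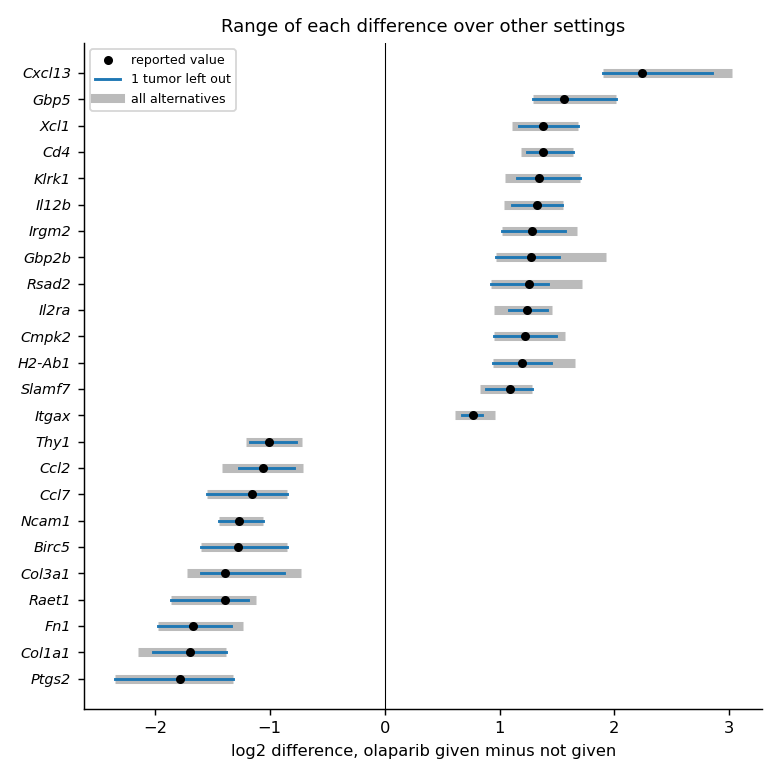
Log2 difference of 24 of the 25 genes with the smallest p (black points), with the range when 1 tumor was left out (blue) and over all 27 alternatives (grey). No range reaches 0.

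Whether the effect of olaparib differed with ADU-S100 was tested for each gene. None passed an adjusted p of 0.05 for the interaction in limma (the smallest was 0.346), and 75 genes had an unadjusted p below 0.05. With its sign, the difference was lower with ADU-S100 in 62 of them and higher in 13, changes of direction included. Over all genes the median difference was also lower with ADU-S100 (-0.22) than without it (0.45). After scaling to the same median it was -0.02 against 0.10. Whether this offset enters the counts was not tested. Without Olaparib tumor 1521 the adjusted count was 86, and without tumors 1517 and 1521 together it was 24. A pair of genes was separated on both backgrounds in opposite directions. H2-DMb2, part of the molecule that loads peptides on class II, read 97.0 to 126 in vehicle and 54.5 to 83.8 in Olaparib tumors, but 37.3 to 79.9 with ADU-S100 alone and 190 to 261 in the combination. Lif, a cytokine of the IL-6 family, went the other way, with 321 to 470 in vehicle, 509 to 908 in Olaparib, 626 to 1466 in ADU-S100 and 204 to 442 in combination tumors.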

How the data were processed

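RNA of 12 tumors (4 groups of 3) was measured with the nCounter mouse cancer immune panel. The authors deposited normalized counts, a signal on a linear scale made with nSolver 4.0 by background correction and scaling to positive controls and 8 housekeeping genes. Above a floor of 1, at least 99.87% of values in each tumor were whole multiples of a step (within 0.01 of a count), from which the value of 1 probe count was inferred, for statements on depth and for the factor used as a term. Of 750 symbols, 736 were current, 8 older and 6 unmatched in RefSeq.

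Genes reaching 20 in at least 3 tumors (689) were tested on log2(normalized count + 1) with limma 3.58.1 in R 4.3.3, with olaparib and ADU-S100 as terms (9 residual degrees of freedom) and Benjamini-Hochberg adjustment over all 689. Per-background differences and the interaction came from a fit of 4 group means. Single genes were also tested by two-sided exact permutation within background. P-values measure the spread between tumors. Named genes were the 15 higher and 10 lower with the smallest p and the same sign on both backgrounds, genes separated on both, and up to 4 members and the defining markers of each list. Members and lists were chosen with earlier results of these data known. Of the 15, 1 is not reported here. Other genes are named with their values already known. Alternatives were other pseudocounts, filters, scalings and fits, tumor weights, the number series, and leaving out tumors. The procedure was tested on simulated data. Figures used matplotlib.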

Additional observations from a re-analysis of the deposited data

Results flagged for a closer look

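In groups of 6 tumors, 5 of 52 tested groups held a tumor whose gap to its neighbor, as a share of the range, exceeded Dixon's critical value at the 95% level; chance flags about 1 in 20 groups. Among tumors given olaparib, Olaparib tumor 1521 was low in Cd4 (60.7 against 106.6 in the next, share 0.683) and in Gbp5 (153.2 against 371.4, 0.801), and Olaparib tumor 1510 was low in Col3a1 (588.4 against 3322, 0.673). Among tumors without olaparib, ADU-S100 tumor 1506 was high in Gbp5 (601 against 100.2, 0.794) and vehicle tumor 1269 was low in Ptgs2 (30.7 against 221.5, 0.71).

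The effect of olaparib ran in opposite directions on the backgrounds in H2-DMb2, where it was larger with ADU-S100 by 2.49 on the log2 scale (unadjusted p = 0.000757, adjusted p = 0.346, limma), and in Lif, where the gap was -2.17 (unadjusted p = 0.00631, adjusted p = 0.346, limma).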

How the results depend on the processing

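The count of 0 genes at an adjusted p below 0.05 held in every setting except tumor weights, which gave 57, with 100 higher and 104 lower genes at an unadjusted p below 0.05. Scaling to the same median gave 17 lower and 6 separated genes, quantile normalization gave 25 and 7, tumors numbered from 15 alone gave 26 higher and 34 separated, and log2 of each tumor's factor as a term gave 77 higher and 24 lower. Without tumors 1517 and 1521 together, a setting chosen after seeing the data, 32 genes were lower, 30 separated and 24 had an interaction. With each tumor left out, higher genes ran from 19 (without ADU-S100 tumor 1513) to 69 (without ADU-S100 tumor 1506), lower genes from 5 (without vehicle tumor 1536 or combination tumor 1270) to 49 (without Olaparib tumor 1517), separated genes from 2 to 16, and genes with an interaction from 0 to 86. Separation is easier with fewer tumors by construction. The higher count was also 23 without vehicle tumor 1536 and 26 without ADU-S100 tumor 1512, and the lower count 26 without vehicle tumor 1269 and 7 without vehicle tumor 1529. The median of all genes, 0.10, turned to -0.003 with quantile normalization, -0.104 with tumor weights and -0.014 without tumors 1517 and 1521, and ran from -0.095 to 0.253 with a tumor left out. The T cell median was -0.283 with a filter at 100. The cause was not tested. No paired analysis was possible because the groups share no tumor numbers. The planned tests on counts were not run, since the deposited values are normalized and the counts behind them are only inferred from each tumor's step. Low genes such as Cd3e and Il12b rested on as few as 5 probe counts in tumor 1517.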
